A study of Mus musculus with 4 samples.

Results

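Myeloma cells from a lymph node of mice with the VQ model were set against normal plasma cells of wild-type bone marrow. Cells were chosen by their measured UMIs and Jchain. The lymph node cells (VQ_LN) were the 171 of 185 cells of their library that held at least 1000 UMIs (counted transcripts) and had Jchain, the joining chain of polymeric antibodies, at under 5% of UMIs. The normal cells (WT_BM) were the 106 of 163 cells of the wild-type library with Jchain at 5% of UMIs or more. The comparison thus rests on 277 of the 781 cells of the series and on 1 library per side. No test across samples was possible, and every interval below is a 95% interval that covers counting error only. Myc, Slpi and Gbp2 were singled out because they were already known to differ between these libraries, so their values are descriptions.

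The study profiled single mouse cells sorted as CD138+ B220-, the surface profile of plasma cells, in 4 droplet libraries read at the 3′ end of transcripts. Per the labels, the VQ cells were donor-derived, were taken from recipient animals and carried a Vκ*MYC transgene, an Nras allele with the Q61R change behind a removable stop cassette (LSL), and IgG1-Cre, on the C57/BL6 strain. They came from a lymph node (VQ_LN, 1 library) and from bone marrow (VQ_BM, 2 libraries). The WT_BM library came from wild-type animals of the same strain that were matched for age, with no transgene, Cre allele or transfer named. In this model the MYC transgene is driven by immunoglobulin kappa elements and the Cre by an immunoglobulin gamma constant gene, so both act in the B lineage. Tissue, genotype, passage through a recipient and library differ together between VQ_LN and WT_BM and cannot be told apart. The labels used here give neither the age or sex of the animals nor whether cells of several animals were pooled.

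Plasma cells are the antibody-secreting end stage of the B lineage. They leave the cell cycle, silence Myc and the antigen presentation genes of B cells, and enlarge the endoplasmic reticulum to fold and export immunoglobulin. Myeloma is a tumour of these cells that grows mainly in bone marrow, and MYC activation and RAS mutation are among its known drivers.

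The VQ_LN cells held 794087 UMIs in all, with a median of 4205 per cell, and the WT_BM cells 204002, with a median of 1998.5. The VQ_BM cells that passed the VQ_LN thresholds, 83.3% of 245 and 73.4% of 188 cells, held 1030101 and 428610 UMIs. Jchain made up 0.502% of the UMIs of VQ_LN cells and 20.4% of those of WT_BM cells, as the choice of cells required. The WT_BM cells nearest to the threshold had 4.98% outside it and 5.51% inside it. The VQ_LN cells nearest to their UMI threshold had 947 and 1049 UMIs, and no lymph node cell was left out for its Jchain. Of the plasma cell markers, 9 take no part in the choice of cells or in the genes singled out above (Xbp1, Prdm1, Irf4, Sdc1, Mzb1, Tnfrsf17, Slamf7, Derl3 and Edem2). All 9 had UMIs in both sets of cells, at least 36 each in VQ_LN and 73 each in WT_BM, and 99.4% of VQ_LN cells and 98.1% of WT_BM cells had UMIs of at least 2 of them. Of the markers of other cells in VQ_LN, 8 of 10 T cell markers, 8 of 10 neutrophil markers and 7 of 8 B cell markers were at 0, with Cd79b (420 UMIs) the B cell marker present. NK cell markers came to 36 UMIs, all of Gzma, and dendritic cell markers to 380, of which 378 were of Bst2, an interferon-inducible gene. The macrophage markers came to 690 CPM in VQ_LN, 653 and 685 CPM in VQ_BM and 2296 CPM in WT_BM, mostly of the protease Ctss, and 47 VQ_LN cells and 6 WT_BM cells had UMIs of 2 of them. The neutrophil markers came to 15.2 CPM in VQ_LN, 693 and 2522 CPM in VQ_BM and 80.0 CPM in WT_BM. Without cells that had 2 markers of another cell type, 123 VQ_LN and 96 WT_BM cells remained. B cell markers were not used in this cut, and 16 WT_BM cells and 0 VQ_LN cells had UMIs of 2 of them. No cell barcode was shared between any pair of libraries.

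Levels are UMIs per 1000000 UMIs other than Jchain (CPM). A gene was measured when the mean of its VQ_LN and WT_BM levels was at least 50 CPM, which held for 3826 of the 11718 genes with a UMI on either side. Of these, 798 (20.9%) were at least 2-fold higher and 750 (19.6%) at least 2-fold lower in VQ_LN, together 40.5%. The counting interval left out a ratio of 1 for 757 of the higher and 731 of the lower genes. With Jchain kept in the library totals the split became 1082 higher and 431 lower, because that scaling moves the median log2 ratio of all measured genes to 0.42, against 0.04 without Jchain. Between the VQ_BM libraries, cut by the same rule, 30 of 3873 measured genes (0.775%) differed by 2-fold or more. Both VQ_BM libraries held more UMIs than WT_BM. In counts simulated at the depths of VQ_LN and WT_BM, 82 of 3618 genes of unchanged level (2.27%) passed 2-fold. Since a gene that is scarce in one set of cells passes the level filter only when it is abundant in the other, counts over the measured members of a list are descriptions. Changes of at least 4-fold numbered 293 higher and 257 lower in VQ_LN.

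**Figure D1:**
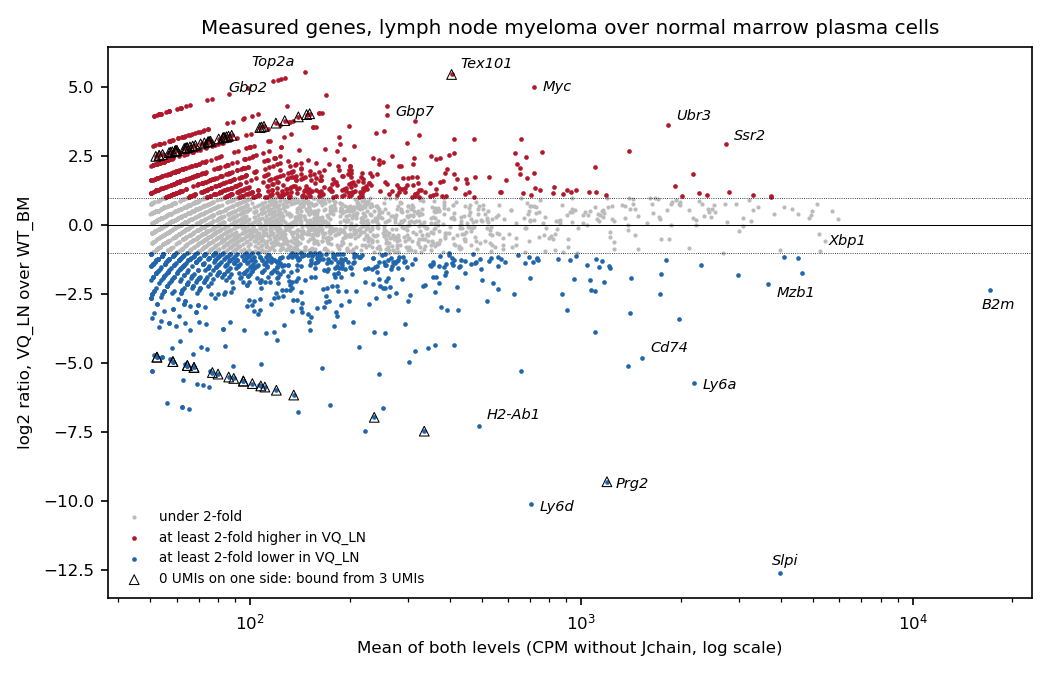
Each point is 1 of 3826 measured genes, with the mean of both levels on the x axis (CPM, log scale) and the log2 ratio of VQ_LN over WT_BM on the y axis; triangles mark genes with 0 UMIs on one side, drawn at the bound that 3 UMIs give. Slpi, Ly6d and Prg2 lie lowest, and Tex101, Top2a and Myc are among the highest.

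Plasma cell identity genes were mostly lower in the lymph node cells. Of 24 measured genes of 30 listed, 15 were at least 2-fold lower and 1 was higher, against 19.6% and 20.9% of all measured genes, and the median log2 ratio was -1.36. Summed over all members in the files, including those under the level filter, the list stood at 14441 CPM in VQ_LN, at 16490 and 18657 CPM in VQ_BM, and at 41281 CPM in WT_BM. With Jchain kept in the totals, 12 were lower and 2 higher. The list holds Slpi, singled out above as known to differ, which gave 7946 CPM of the WT_BM sum. The WT_BM cells were also chosen for high Jchain, so the sides were not picked alike for plasma cell genes.

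Slpi encodes a secreted inhibitor of serine proteases. It stood at 1.27 CPM in VQ_LN, from a single UMI, at 3.91 and 0 CPM in VQ_BM, and at 7946 CPM in WT_BM, where 1291 UMIs were counted. The ratio was 6278-fold lower in VQ_LN, with a counting interval of 1125 to 248164. After every cell was thinned to 800 UMIs other than Jchain, Slpi was found in 0 of 171 VQ_LN cells, which allows a share of up to 1.75% at the limit of 3 counts, and in 78.2% of 87 WT_BM cells. Before thinning the shares were 0.585% in VQ_LN and 79.2% in WT_BM. Among the 22 WT_BM cells that carried B cell precursor markers and lay outside the rule, 4.55% had a Slpi UMI after thinning.

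Prg2, first described as a granule protein of eosinophils, had no UMI in VQ_LN, 255 and 2.35 CPM in VQ_BM and 2388 CPM in WT_BM, so it was at least 629-fold lower in VQ_LN. A single cell held 252 of the 261 Prg2 UMIs of VQ_BM replicate 1. Trp53inp1, a stress-responsive target of p53, was 34.3-fold lower (interval 26.2 to 45.5), at 78.5 CPM in VQ_LN and 2690 CPM in WT_BM. Tnfrsf17, BCMA, a survival receptor, was 11.9-fold lower (7.98 to 18.0), at 45.6 CPM in VQ_LN and 542 CPM in WT_BM.

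The transcription factors that hold the plasma cell state were lower by smaller factors. Prdm1, which encodes BLIMP-1, had 75.9 CPM in VQ_LN, 66.4 and 46.9 CPM in VQ_BM and 449 CPM in WT_BM, 5.92-fold lower in VQ_LN (interval 4.15 to 8.47). Irf4 was 2.37-fold lower (1.87 to 2.98), and this dropped under 2-fold with Jchain kept in the totals, with all cells, after thinning and without cells that carried proliferation genes. Xbp1, the factor that drives the secretory programme, was 1.94-fold lower, at 3575 CPM in VQ_LN and 6924 CPM in WT_BM. Sdc1, which encodes the CD138 of the sort, stood at 581 CPM in VQ_LN, 724 and 650 CPM in VQ_BM and 1089 CPM in WT_BM, 1.88-fold lower. All 4 genes were lower in each VQ library than in WT_BM. Ptprc, which encodes CD45 and its B220 form, was 3.14-fold lower (2.08 to 4.70), at 82.3 CPM in VQ_LN and 259 CPM in WT_BM.

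Mzb1, an endoplasmic reticulum chaperone of antibody assembly chosen after its values were seen, lay between the marrow sets in the lymph node cells. It stood at 1361 CPM in VQ_LN, at 33.2 and 37.5 CPM in VQ_BM, and at 5976 CPM in WT_BM. VQ_LN was thus 4.39-fold lower than WT_BM (interval 4.02 to 4.80), with the VQ_BM libraries far below both. After thinning, 45.6% of VQ_LN cells, 2.94% and 4.35% of VQ_BM cells and 93.1% of WT_BM cells had an Mzb1 UMI. Of the WT_BM precursor-like cells, 27.3% had one, which is below the VQ_LN share and above the VQ_BM shares. The difference between the VQ tissues was not tested, since the lymph node gave 1 library.

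Secretory genes were split. Of 58 measured genes of the secretory pathway and unfolded protein response, 17 (29.3%) were at least 2-fold lower and 5 (8.62%) higher, against 19.6% and 20.9% of all measured genes. The median log2 ratio was -0.41, or -0.084 with Jchain kept in the totals. Over all cells of both libraries 5 were lower and 9 higher, with a median of 0.085. Herpud1, of endoplasmic reticulum degradation, was 5.63-fold lower (4.92 to 6.44). Ssr4 was 3.49-fold lower while Ssr2, another subunit of the same translocon-associated complex, was 7.67-fold higher (6.30 to 9.44), at 4818 CPM in VQ_LN, 3900 and 4247 CPM in VQ_BM and 628 CPM in WT_BM. Fkbp11, a prolyl isomerase of the secretory pathway, was the 1 higher gene of the identity list, at 1050 CPM in VQ_LN and 252 CPM in WT_BM. Hspa5, the master chaperone BiP, was 1.44-fold higher (1.33 to 1.56), under the 2-fold mark.

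**Figure D2:**
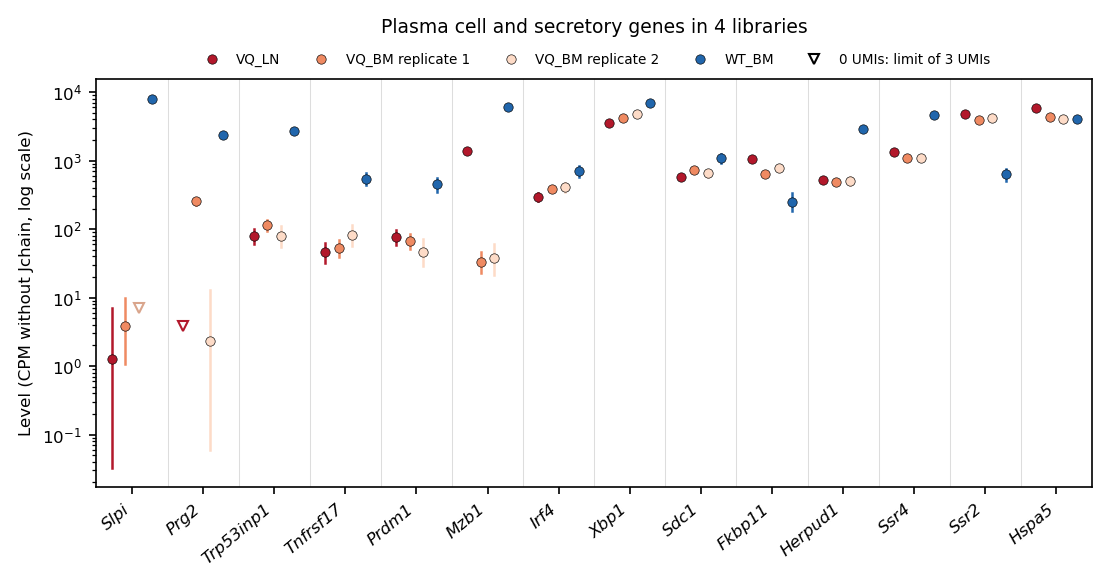
Levels (CPM without Jchain, log scale) of 14 plasma cell and secretory genes in VQ_LN, both VQ_BM libraries and WT_BM, with 95% Poisson intervals; open triangles mark 0 UMIs, drawn at the level of 3 UMIs. Mzb1 is the gene at which VQ_LN lies well above VQ_BM, and Slpi and Prg2 show the widest gap to WT_BM.

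Genes of cell division were mostly higher. Of 51 listed genes of DNA replication and mitosis, 27 were measured, of which 24 (88.9%, against 20.9% of all measured genes) were at least 2-fold higher and 0 lower, with a median log2 ratio of 2.81; the other 24 were under the filter or without a UMI. With all cells of both libraries, which adds the 57 WT_BM cells under the Jchain threshold, 22 of them precursor-like, 10 were higher and the median was 0.64. Without the WT_BM cells with 2 or more UMIs of MHC class II genes or Cd74, which left 17 WT_BM cells, 6 were higher. The whole list summed to 7274 CPM in VQ_LN, 8712 and 8204 CPM in VQ_BM and 1262 CPM in WT_BM. Ccna2, a cyclin of DNA replication, had 302 CPM in VQ_LN, 325 and 343 CPM in VQ_BM and no UMI in WT_BM, at least 16.4-fold higher in VQ_LN. Top2a, the topoisomerase of replicating chromosomes, was 46.7-fold higher (interval 8.29 to 1852) against a single WT_BM UMI, and was under 2-fold with all cells, without the WT_BM cells with class II UMIs and without cells that carried proliferation genes. Birc5, survivin, was at least 9.32-fold higher. Mki67, the usual proliferation marker, stood at 82.3 CPM in VQ_LN and 49.2 CPM in WT_BM, a ratio of 1.67 with an interval of 0.800 to 4.03 that includes 1. After thinning, 80.7% of VQ_LN cells, 92.2% and 91.3% of VQ_BM cells and 21.8% of WT_BM cells had UMIs of at least 2 of the 51 genes.

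Myc and listed genes that it is known to induce were higher as a group. Myc (chromosome 15) stood at 1393 CPM in VQ_LN, 1285 and 1476 CPM in VQ_BM and 43.1 CPM in WT_BM, from 7 UMIs, a 32.3-fold higher level in VQ_LN (interval 15.6 to 80.6). The 3 VQ libraries lay close together and WT_BM far below them. The tables do not say whether transgene transcripts are counted under Myc. After thinning, 63.7% of VQ_LN cells and 2.30% of WT_BM cells had a Myc UMI, beside 31.8% of the WT_BM precursor-like cells. The list of MYC targets holds genes of ribosome building and others, such as Tfrc, Apex1 and Ldha. Of its 50 measured genes, 42 (84.0%, against 20.9% of all measured genes) were at least 2-fold higher and 0 lower. The median log2 ratio was 1.88. With all cells 37 were higher, and against the 17 WT_BM cells with fewer than 2 class II UMIs 19 were higher and 2 lower. Tfrc, the transferrin receptor, was 26.5-fold higher (7.27 to 220). Apex1, a DNA repair endonuclease, was 19.9-fold higher (5.45 to 166). Ppan, a ribosome assembly factor, had no UMI in WT_BM and was at least 8.71-fold higher. Without cells that carried UMIs of 2 or more proliferation genes, which left 33 VQ_LN and 68 WT_BM cells, 36 genes of the list were higher and 1 lower.

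The E-box CACGTG, the palindrome that MYC and its partner MAX bind, was searched in the 300 bases from 250 before to 50 after each start in the RefSeq table (GRCm38.p6). It lies in 32.8% of the 67 windows of the MYC target list, in 15.1% of the windows of genes at least 2-fold higher, in 10.1% of those at least 2-fold lower, in 11.6% of those of all measured genes and in 7.15% of all 32851 windows. Apex1 (chr14:50924699-50924998, + strand) and Ldha (first of 2 starts, chr7:46845554-46845853, + strand), 2 targets among the named genes, show it more than once; capitals mark CACGTG, which reads alike on both strands. The windows of Tfrc and Ppan and the second Ldha start hold no CACGTG, and that of Slpi, lower in VQ_LN, holds 1.
Apex1: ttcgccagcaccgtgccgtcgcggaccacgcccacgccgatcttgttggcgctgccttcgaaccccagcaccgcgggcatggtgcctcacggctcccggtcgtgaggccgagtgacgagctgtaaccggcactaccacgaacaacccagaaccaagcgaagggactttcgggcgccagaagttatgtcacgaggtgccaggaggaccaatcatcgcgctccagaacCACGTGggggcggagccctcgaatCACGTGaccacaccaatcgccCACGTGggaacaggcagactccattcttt
Ldha: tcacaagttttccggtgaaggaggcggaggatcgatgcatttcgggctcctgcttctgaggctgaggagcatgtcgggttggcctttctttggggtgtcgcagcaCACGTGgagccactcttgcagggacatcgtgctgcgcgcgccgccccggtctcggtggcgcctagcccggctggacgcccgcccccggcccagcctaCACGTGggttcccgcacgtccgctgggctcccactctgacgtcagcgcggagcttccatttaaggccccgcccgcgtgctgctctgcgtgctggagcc
Such a match is a description of the letters and was not tied to binding.

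Metabolic and signalling genes varied by list. Of 9 measured genes of glycolysis and lactate transport, 7 were at least 2-fold higher (77.8%, against 20.9% of all measured genes) and 0 lower. With all cells 4 were higher, and 3 without the WT_BM cells with 2 or more class II UMIs. Ldha, lactate dehydrogenase A, was 8.64-fold higher (5.28 to 15.2), and Slc16a1, a lactate transporter, had no UMI in WT_BM and was at least 11.6-fold higher. Cytosolic ribosomal protein genes had a median log2 ratio of 0.56, with 10 of 75 (13.3%) at least 2-fold higher, below the 20.9% of all measured genes, or 31 with Jchain kept in the totals, 16 with TMM factors and 2 with all cells. Among oxidative phosphorylation genes 39 of 45 were within 2-fold, with 11.1% higher and 2.22% lower, against 20.9% and 19.6% of all measured genes. Of 8 measured genes of RAS and MAPK output, 4 were higher and 2 lower (against 20.9% and 19.6% of all measured genes). Myc, singled out above as known to differ, was 1 of the 4. Nras, the GTPase altered in the model, stood at 333 CPM in VQ_LN, 299 and 328 CPM in VQ_BM and 105 CPM in WT_BM, 3.18-fold higher (1.95 to 5.54), a difference under 2-fold with all cells and after thinning. Phlda1 and Dusp6, a phosphatase of ERK kinases, were 16.5-fold (5.59 to 80.7) and 11.1-fold higher (3.00 to 92.9), each against 3 or fewer WT_BM UMIs. Egr1 was 7.42-fold and Dusp1 8.88-fold lower, and both belong to the immediate early genes as well.

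**Figure D3:**
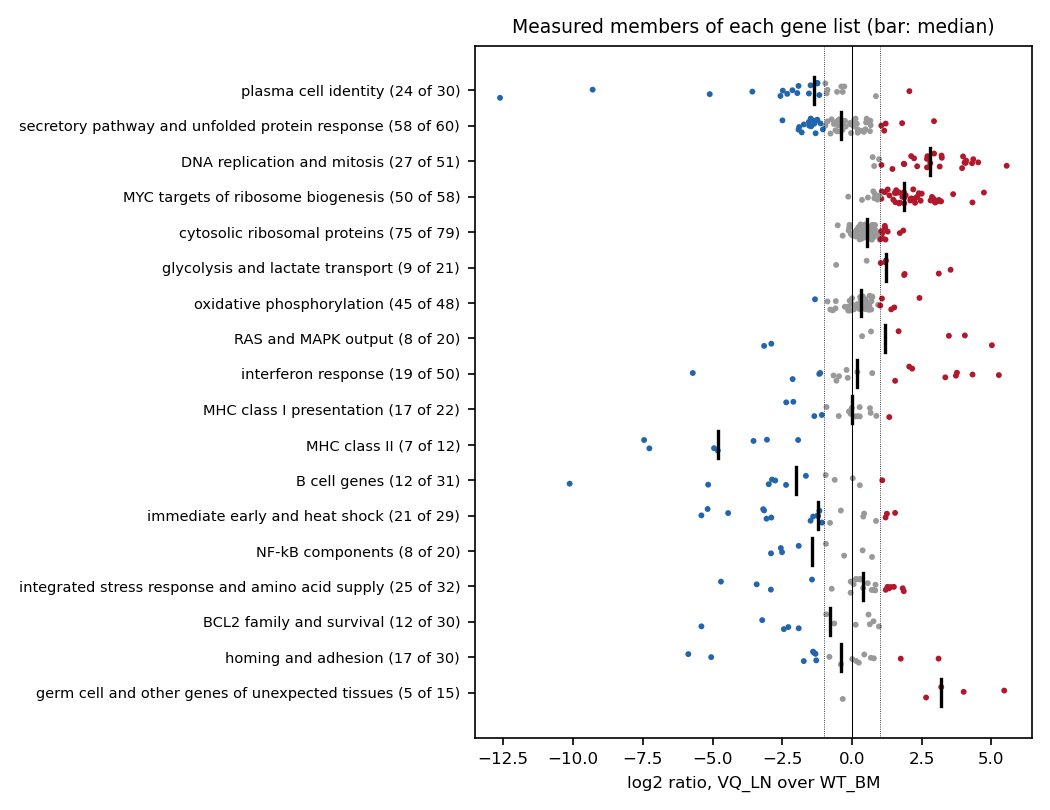
Log2 ratio of VQ_LN over WT_BM for each measured member of 18 gene lists, with the number measured of the number listed; bars give the median, red points are at least 2-fold higher and blue points at least 2-fold lower. Replication and MYC target genes lie to the right, MHC class II genes to the left, and interferon genes on both sides.

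Interferon-inducible genes were divided by kind. Interferon gamma induces the guanylate-binding proteins (Gbp genes) and the immunity-related GTPases, which attack the vacuoles of intracellular microbes, along with MHC genes. Of 50 listed interferon response genes, 19 were measured. Of these, 8 (42.1%) were at least 2-fold higher and 4 (21.1%) lower, against 20.9% and 19.6% of all measured genes, and the median log2 ratio was 0.19. With Jchain kept in the totals 9 were higher and 2 lower, with a median of 0.78, and the median was 0.55 with TMM factors and 0.52 with median-of-ratios factors. The 8 were Gbp2, Gbp3, Gbp4, Gbp7, Igtp, Irgm1, Ifi47 and Ifitm3, so 7 of the 8 encode GTPases of these families and the other, Ifitm3, an antiviral membrane protein. Apart from Gbp2, Gbp3 and Gbp7, the GTPases given here were named after their values were seen. Gbp2 itself was singled out above as known to differ.

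Gbp2 had 237 CPM in VQ_LN, 9.76 and 11.7 CPM in VQ_BM and 6.15 CPM in WT_BM, from a single UMI, 38.5-fold higher in VQ_LN than in WT_BM (interval 6.82 to 1527). Gbp7 had 492 CPM in VQ_LN, 80.1 and 86.8 CPM in VQ_BM and 24.6 CPM in WT_BM, 20.0-fold higher (7.75 to 73.8). Gbp3 had 585 CPM in VQ_LN, 166 and 195 CPM in VQ_BM and 43.1 CPM in WT_BM, 13.6-fold higher (6.53 to 33.9). For all 3 genes VQ_LN was the highest of the 4 libraries, and for Gbp3 and Gbp7 the VQ_BM libraries lay between VQ_LN and WT_BM. Gbp4 behaved otherwise in marrow, with 153 CPM in VQ_LN, 6.83 and 9.38 CPM in VQ_BM and 36.9 CPM in WT_BM, 4.15-fold higher in VQ_LN (1.85 to 11.5). Gbp5, just under the level filter, had 79 UMIs in VQ_LN and none in WT_BM, at least 5.42-fold higher. Gbp9 had 50.6 CPM in VQ_LN and 18.5 CPM in WT_BM, from 3 UMIs. Gbp8 went the other way on few counts, with 4 UMIs (5.06 CPM) in VQ_LN and 2 UMIs (12.3 CPM) in WT_BM. Gbp6 had 0 UMIs in VQ_LN and 1 in WT_BM. Gbp2b, Gbp10 and Gbp11 had no UMI in any of the 4 sets of cells.

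The immunity-related GTPases followed. Igtp had 467 CPM in VQ_LN, 95.7 and 70.4 CPM in VQ_BM and 105 CPM in WT_BM. Irgm1 had 270 CPM in VQ_LN, 64.4 and 46.9 CPM in VQ_BM and 92.3 CPM in WT_BM, 2.92-fold higher in VQ_LN (interval 1.73 to 5.31), which was under 2-fold without cells that carried proliferation genes and without the WT_BM cells with 2 or more class II UMIs. Ifi47 had 244 CPM in VQ_LN, 24.4 and 35.2 CPM in VQ_BM and 18.5 CPM in WT_BM. For Igtp and Irgm1 the VQ_BM libraries were near or below WT_BM, with VQ_LN the highest of the 4. Iigp1 and Tgtp1, below the level filter, had 36 and 37 UMIs in VQ_LN and none in WT_BM.

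Other members of the interferon list went both ways. Bst2, tetherin, had 478 CPM in VQ_LN, 202 and 232 CPM in VQ_BM and 289 CPM in WT_BM, under the 2-fold mark. Irf1, an early transcription factor of the response, had 64.5 CPM in VQ_LN, 15.6 and 14.1 CPM in VQ_BM and 73.9 CPM in WT_BM, with an interval for VQ_LN over WT_BM that includes 1. VQ_LN and WT_BM thus did not differ beyond counting error for Irf1, and both VQ_BM libraries were lower. Ly6a, the surface antigen Sca-1, was 52.2-fold lower (40.5 to 68.4), at 82.3 CPM in VQ_LN, 22.5 and 21.1 CPM in VQ_BM and 4296 CPM in WT_BM. Ifi27l2a, Ly6e and Zbp1 were 4.37-fold, 2.25-fold and 2.20-fold lower. The Ly6e and Zbp1 differences were under 2-fold with Jchain kept in the totals and with all cells, and that of Ifi27l2a after thinning.

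**Figure D4:**
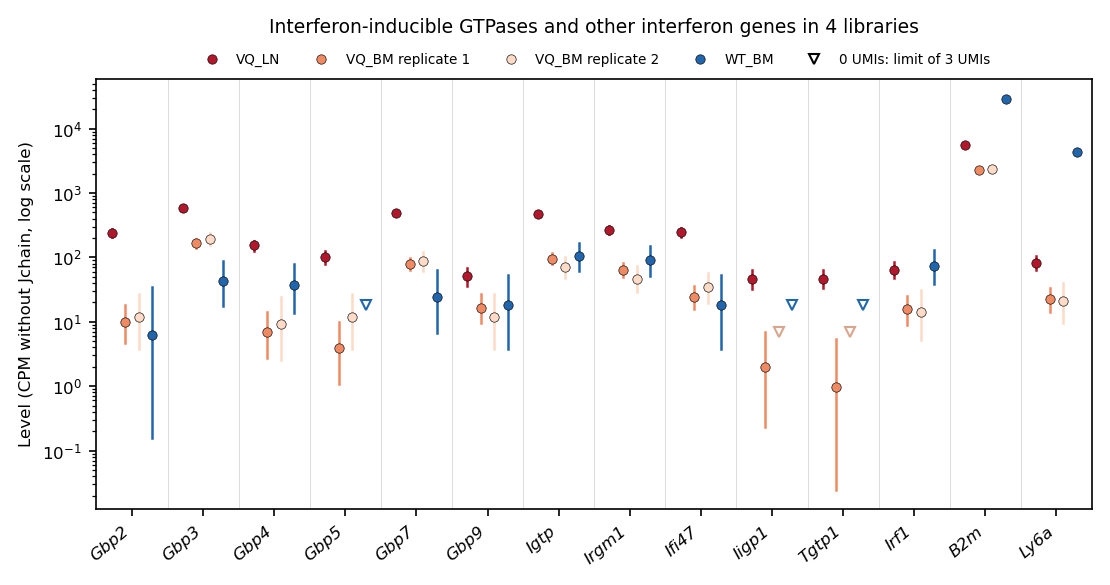
Levels (CPM without Jchain, log scale) of 11 interferon-inducible GTPases and of Irf1, B2m and Ly6a in VQ_LN, both VQ_BM libraries and WT_BM, with 95% Poisson intervals; open triangles mark 0 UMIs, drawn at the level of 3 UMIs. VQ_LN is the highest of the 4 libraries for the 11 GTPases drawn, and WT_BM for B2m and Ly6a. Gbp6 and Gbp8 are not drawn.

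The GTPase signal was found in many lymph node cells, unevenly. After thinning, Gbp3 was found in 36.8% of VQ_LN cells (29.6 to 44.5), in 9.31% and 14.5% of VQ_BM cells and in 4.60% of WT_BM cells (1.27 to 11.4). Gbp7 was found in 29.2% of VQ_LN cells and in 0 of 87 WT_BM cells, which allows up to 3.45% at the limit of 3 counts, beside 13.6% of the 22 WT_BM precursor-like cells. Gbp2 was found in 14.0% of VQ_LN cells and in 0 of 87 WT_BM cells. Before thinning the Gbp2 shares were 45.0% in VQ_LN and 0.943% in WT_BM. At least 2 of 11 Gbp genes had a UMI in 23.4% of thinned VQ_LN cells, in 2.45% and 3.62% of VQ_BM cells and in 0 of 87 WT_BM cells, while 35.1% of VQ_LN cells had no Gbp UMI at this depth. Gbp UMIs per thinned VQ_LN cell had a median of 1, an upper quartile of 2 and a maximum of 13. Of thinned VQ_LN cells, 57.3% had no UMI of the 7 immunity-related GTPase genes, against 85.1% of WT_BM cells. No other cell type of the lymph node library was numerous enough to give a background share for free RNA.

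**Figure D5:**
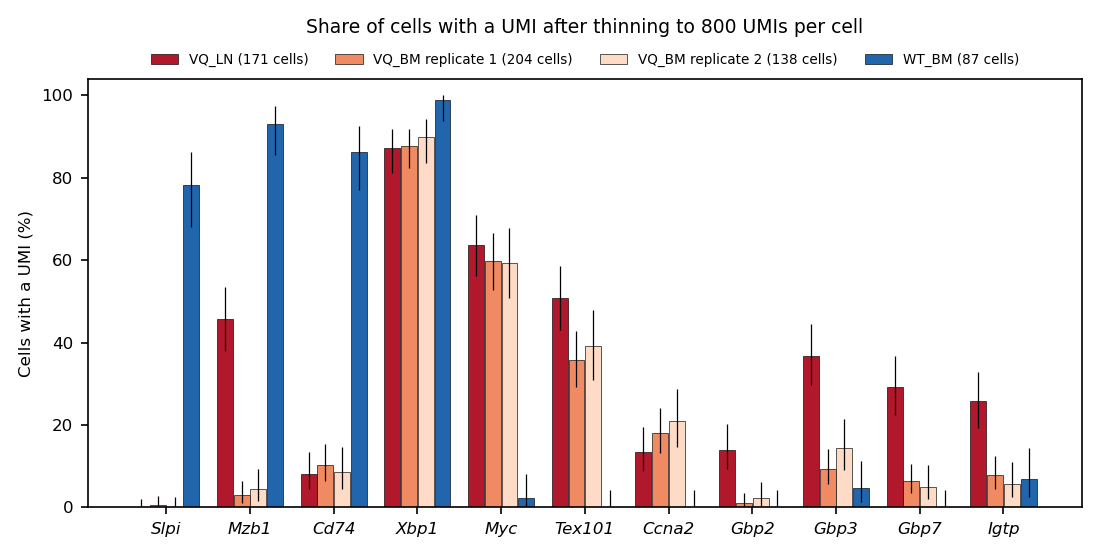
Share of cells with a UMI (%) for 11 genes after each cell was thinned to 800 UMIs other than Jchain, with exact binomial 95% intervals, for 171 VQ_LN cells, the VQ_BM cells of both libraries and 87 WT_BM cells. Slpi, Mzb1 and Cd74 are highest in WT_BM, and the Gbp genes and Igtp in VQ_LN.

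The letters upstream of these genes were read for the core of the interferon-stimulated response element, GAAA repeated after any 2 bases, on both strands. The GAAA repeat lies in 4 of 5 windows of the Gbp genes found in the RefSeq promoter table (Gbp2, Gbp3, Gbp5 and Gbp7, Gbp3 having a second start without it), in 56.4% of the interferon list's 39 windows in 3.20% of those of all measured genes and in 3.44% of all 32851 windows. Among genes at least 2-fold higher in VQ_LN the share was 3.51%, and among those lower 3.88%. Capitals mark the GAAA repeat, which reads as a TTTC repeat on the other strand; neighbouring GAAA repeats overlap in Gbp3 and Irgm1. The windows (GRCm38.p6) are Gbp2 at chr3:142620413-142620712, Gbp3 at chr3:142559794-142560093, Gbp5 at chr3:142496684-142496983 and Gbp7 at chr3:142530086-142530385, all on the + strand of chromosome 3, where these genes form a cluster, and Igtp at chr11:58199306-58199605 (+ strand) and Irgm1 at chr11:48871371-48871670 (- strand) on chromosome 11.
Gbp2: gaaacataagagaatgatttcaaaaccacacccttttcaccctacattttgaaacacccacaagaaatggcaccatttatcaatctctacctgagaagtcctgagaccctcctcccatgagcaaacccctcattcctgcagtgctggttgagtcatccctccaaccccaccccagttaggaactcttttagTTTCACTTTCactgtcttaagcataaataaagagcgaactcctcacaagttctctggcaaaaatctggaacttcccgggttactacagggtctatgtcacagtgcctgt
Gbp3: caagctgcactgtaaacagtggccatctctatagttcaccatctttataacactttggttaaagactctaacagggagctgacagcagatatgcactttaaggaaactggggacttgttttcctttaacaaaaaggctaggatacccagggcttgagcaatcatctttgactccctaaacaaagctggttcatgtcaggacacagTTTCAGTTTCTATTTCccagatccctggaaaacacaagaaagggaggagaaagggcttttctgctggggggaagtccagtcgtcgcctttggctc
Gbp5: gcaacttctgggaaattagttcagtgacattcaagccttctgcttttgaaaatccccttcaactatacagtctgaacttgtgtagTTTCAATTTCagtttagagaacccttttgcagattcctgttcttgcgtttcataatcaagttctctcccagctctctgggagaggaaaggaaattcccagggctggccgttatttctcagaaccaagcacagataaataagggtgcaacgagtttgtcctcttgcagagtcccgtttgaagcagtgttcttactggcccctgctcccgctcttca
Gbp7: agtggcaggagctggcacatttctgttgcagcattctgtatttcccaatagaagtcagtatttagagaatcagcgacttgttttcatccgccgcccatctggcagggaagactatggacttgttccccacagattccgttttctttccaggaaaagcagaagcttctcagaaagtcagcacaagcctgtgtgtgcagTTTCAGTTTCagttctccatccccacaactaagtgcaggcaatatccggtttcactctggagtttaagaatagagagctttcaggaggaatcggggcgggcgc
Igtp: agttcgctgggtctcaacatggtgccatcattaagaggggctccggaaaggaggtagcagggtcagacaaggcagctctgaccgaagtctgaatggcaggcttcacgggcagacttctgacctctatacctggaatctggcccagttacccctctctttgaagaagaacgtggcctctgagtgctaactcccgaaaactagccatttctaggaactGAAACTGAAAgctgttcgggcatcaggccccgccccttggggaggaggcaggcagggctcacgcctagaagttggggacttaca
Irgm1: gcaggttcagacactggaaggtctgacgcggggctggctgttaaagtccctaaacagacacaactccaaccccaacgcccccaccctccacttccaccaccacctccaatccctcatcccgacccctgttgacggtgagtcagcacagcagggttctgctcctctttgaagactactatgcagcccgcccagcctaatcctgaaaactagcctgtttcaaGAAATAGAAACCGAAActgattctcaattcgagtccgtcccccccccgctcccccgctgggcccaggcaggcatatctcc
These 6 windows are shown because they hold the GAAA repeat; the window of Ifi47 holds none, and that of Ifitm3 holds 2. Counted from the gene's start at 0, the GAAA repeat begins at -59 in Gbp2, -53 in Gbp7 and -34 in Igtp, and at -165 in Gbp5.

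Antigen presentation genes were lower for class II and mixed for class I. All 7 measured members of the MHC class II list of 12 were at least 2-fold lower in VQ_LN, against 19.6% of all measured genes. The list also holds Cd74 and the protease Ctss, which is counted among the macrophage markers above. Ctss gave 463 of the list's 647 UMIs in VQ_LN. H2-Ab1, a class II beta chain, was 154-fold lower (interval 64.5 to 480), at 6.33 CPM in VQ_LN, 21.5 and 2.35 CPM in VQ_BM and 972 CPM in WT_BM. Cd74, the invariant chain, was 28.1-fold lower (22.2 to 35.9), at 105 CPM in VQ_LN, 89.8 and 106 CPM in VQ_BM and 2948 CPM in WT_BM. After thinning, 8.19% of VQ_LN cells and 86.2% of WT_BM cells had a Cd74 UMI. The class II signal of WT_BM was thus carried by most of its cells, though 37 of 106 had no UMI of H2-Aa, H2-Ab1 or H2-Eb1. Those 37 cells, which lack those 3 genes by construction, were set apart after the data were seen. Against them 2 members of the class II list were at least 2-fold lower.

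B2m, the light chain of class I molecules, had 5587 CPM in VQ_LN, 2291 and 2363 CPM in VQ_BM and 28645 CPM in WT_BM, 5.13-fold lower in VQ_LN than in WT_BM (4.92 to 5.34). Tapbp, tapasin, was 4.29-fold lower (3.40 to 5.41). Yet 12 of 17 measured class I genes were within 2-fold. The higher and lower shares were 5.88% and 23.5%, against 20.9% and 19.6% of all measured genes. The median log2 ratio was -0.01, or 0.31 with Jchain kept in the totals and 0.08 with TMM scaling. H2-D1, a class I heavy chain chosen after its values were seen, had 1853 CPM in VQ_LN and 1865 CPM in WT_BM. H2-K1, another heavy chain chosen in the same way, had 2765 and 5207 CPM, 1.88-fold lower in VQ_LN (1.74 to 2.04). H2-T23, a further class I gene, was 2.55-fold lower (1.72 to 3.73). The H2-T23 difference was under 2-fold with all cells, after thinning and without the WT_BM cells with 2 or more class II UMIs. The immunoproteasome subunits Psmb8 and Psmb9, also chosen afterwards, had 651 and 497 CPM in VQ_LN, 392 and 237 CPM in VQ_BM replicate 1, and 702 and 431 CPM in WT_BM.

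B cell, immediate early and heat shock genes were mostly lower. Of 12 measured B cell genes, 7 (58.3%) were at least 2-fold lower and 1 (8.33%) higher, against 19.6% and 20.9% of all measured genes. The higher gene, Blnk, an adaptor of the B cell receptor, was 2.12-fold higher, a difference past 2-fold under 8 of 12 other settings. Ly6d, a surface antigen of the B lineage, had 1.27 CPM in VQ_LN and 1409 CPM in WT_BM, and 63.6% of the thinned WT_BM precursor-like cells had a UMI of it beside 50.6% of WT_BM cells. Of 21 immediate early and heat shock genes, 13 (61.9%) were lower and 3 (14.3%) higher, against 19.6% and 20.9% of all measured genes. Fosb, an AP-1 subunit, was 42.1-fold lower (21.1 to 95.6) and Hspa1b, an inducible HSP70, 21.7-fold lower (13.8 to 35.3). Of 8 measured NF-kB components, 4 were lower (50%, against 19.6% of all measured genes), 4 within 2-fold and 0 higher. Nfkbia, the inhibitor that NF-kB itself induces, was 5.68-fold lower (4.54 to 7.13).

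Survival and adhesion genes were split between low and kept members. Bcl2, the inhibitor of apoptosis, had no UMI in VQ_LN and 160 CPM in WT_BM, at least 42.1-fold lower, while Mcl1, the family member on which plasma cells depend, stood at 1181 CPM in VQ_LN and 1077 CPM in WT_BM. The kinase Pim2 was 9.30-fold lower (5.50 to 16.1). Of 17 measured homing and adhesion genes, 7 (41.2%) were lower and 2 (11.8%) higher, against 19.6% and 20.9% of all measured genes. Itgb7, an integrin chain of gut homing, was 58.4-fold lower (14.5 to 509), against 2 UMIs in VQ_LN, and Itgb2, the shared chain of leukocyte integrins, 33.1-fold lower (12.9 to 108). Cxcr4, the marrow homing receptor, had 69.6 CPM in VQ_LN, 70.3 and 79.8 CPM in VQ_BM and 172 CPM in WT_BM, 2.48-fold lower (1.51 to 3.97), a difference under 2-fold with Jchain kept in the totals, with all cells, after thinning and without the WT_BM cells with 2 or more class II UMIs. Epcam, an epithelial adhesion molecule, was 8.59-fold higher (5.08 to 15.8), at 740 CPM in VQ_LN, 726 and 711 CPM in VQ_BM and 86.2 CPM in WT_BM. For both receptors the 3 VQ libraries were close to each other.

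Among genes of amino acid supply and the integrated stress response, 7 of 25 measured were higher and 4 lower, shares of 28.0% and 16.0% that lie near the 20.9% and 19.6% of all measured genes. Psat1, of serine synthesis, was 3.62-fold higher (1.92 to 7.68), whereas Slc3a2, the shared chain of several amino acid transporters, was 10.7-fold lower (9.22 to 12.4) and Ddit3, the stress factor CHOP, 25.9-fold lower (7.42 to 139) from 3 UMIs in VQ_LN.

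Several of the 12 top-ranked higher genes are rarely linked to plasma cells. Tex101, a glycoprotein best known from germ cells, had 811 CPM in VQ_LN, 691 and 706 CPM in VQ_BM and no UMI in WT_BM, at least 43.9-fold higher in VQ_LN. It was found in 50.9% of thinned VQ_LN cells, in 0 of 87 WT_BM cells and in 0 of the 22 precursor-like cells. Crygs, which encodes a crystallin of the eye lens, was at least 16.0-fold higher, Khdc3, an oocyte protein, at least 15.1-fold, and Cyp2b10, a drug-metabolising enzyme best known from liver, at least 13.8-fold. Smpdl3b, Asph and Fabp5, a fatty acid binding protein, had no UMI in WT_BM either and were at least 13.0-fold, 11.9-fold and 11.7-fold higher. Ubr3, a ubiquitin ligase, had UMIs on both sides, 44 of them in WT_BM. It stood at 3376 CPM in VQ_LN, 3986 and 3674 CPM in VQ_BM and 271 CPM in WT_BM, 12.5-fold higher in VQ_LN (9.26 to 17.2). All 8 of these genes were higher in each of the 3 VQ libraries than in WT_BM. Within the list of germ cell genes and others of unexpected tissues, 4 of 5 measured members were higher (80%, against 20.9% of all measured genes). A further 10 were under the filter, and the list was drawn up with such results in view.

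Further genes found in WT_BM had no UMI in VQ_LN: the sulfotransferase Chst1 (at least 125-fold lower), the Ras activator Rasgrp3 (at least 71.3-fold) and the sialyltransferase St8sia6 (at least 58.4-fold). The Y-linked gene Ddx3y also ranked here, with 35 UMIs in WT_BM and 0 in VQ_LN and in both VQ_BM libraries. Summed over 4 Y-linked genes, 63 UMIs were found in 44 of the 106 WT_BM cells and none in any VQ library. The X-linked RNA Xist, chosen after its values were seen, had 0 UMIs in VQ_LN and in WT_BM, and 12 and 2 in VQ_BM. Malat1, a long noncoding RNA of the nucleus chosen after its values were seen, was 14.5-fold lower (11.7 to 18.2), at 142 CPM in VQ_LN, 180 and 127 CPM in VQ_BM and 2062 CPM in WT_BM. The Y-linked genes and Malat1 thus moved with the comparison, and the part of animal sex or RNA quality in the other results was not tested.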

How the data were processed

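Each table deposited by the authors gives unscaled whole-number UMI counts, with cells in rows and genes in columns, for the barcodes that passed their knee filter. Each has 24421 gene columns and none for immunoglobulin constant or mitochondrially encoded genes. The submitters' processing notes name the build mm10, and the aligner and counter are not given in the sources used here. Chosen cells were summed per library and scaled without Jchain (numpy 2.4.6, pandas 2.3.3). Ratios carry exact conditional binomial intervals, levels exact Poisson intervals and shares exact Clopper-Pearson intervals, all at 95% and for counting error only. A side at 0 was set to 3 UMIs over the side, and the limit printed for a share of 0 cells is 3 counts of the cells. No doublet caller was run, and the labels do not say whether doublets were removed; leaving out the 10 cells of most UMIs per side was an alternative. The ratios and intervals were tested on simulated counts. TMM factors came from edgeR 4.0.16 and size factors from DESeq2 1.42.0 as alternatives, with no test of either.

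The members, the 20 gene lists and the named genes were chosen with earlier results of these data known. Named genes were 12 per direction by the interval bound nearest to no change, up to 4 per list and direction, given markers and key members, and those stated as chosen after their values were seen; a gene of the 12 lower and a key member are not reported here. Alternatives covered scaling, thresholds, filters and cell subsets. Cells of precursor type outside the rule had UMIs of at least 2 precursor markers.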

Additional observations from a re-analysis of the deposited data

How the results depend on the processing

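Counts of genes at least 2-fold higher and lower in VQ_LN, 798 and 750, were recomputed under 15 other settings. They moved by over 1.5 times with Jchain kept in the totals for the lower genes (431), with a level filter of 10 CPM (1954 higher, 1814 lower), of 200 CPM (149 and 168) or none (2002 and 2334), and without WT_BM cells that had 2 or more UMIs of MHC class II genes or Cd74 (343 and 1211). The last setting removed 89 of 106 WT_BM cells and left 14372 UMIs, so a WT_BM gene at 0 is bounded only loosely there. Under it the log2 ratio changed sign for Ptprc (0.24), Tap2 (0.33), Psph (-0.46) and Irgm1 (-0.046); the cause was not tested. The median log2 ratio of all measured genes, 0.04, was 0.42 with Jchain kept, 0.15 with TMM factors and 0.12 with median-of-ratios factors. A setting added after the data were seen, without WT_BM cells with a UMI of H2-Aa, H2-Ab1 or H2-Eb1, left 37 WT_BM cells and gave 762 higher and 977 lower genes. Of 122 named genes past 2-fold, 61 stayed past it in the same direction under all 12 settings that recompute single genes and 61 did not under at least 1. Gbp3, Gbp4, Gbp7, Ifitm3 and Tex101 were among those that stayed, and Gbp2 was under 2-fold only without the WT_BM cells with class II UMIs. Depth limits WT_BM most: 3 UMIs there stand for 18.5 CPM, against 3.80 CPM in VQ_LN, so folds against genes with few WT_BM UMIs are known only as wide intervals. No paired analysis was possible because the labels number replicates only within VQ_BM and each side of the comparison is 1 library.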
